A study of Homo sapiens with 6 samples.

Results

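Messenger RNA of 6 genes that was much lower after vemurafenib was examined in A375 cells: TMEM158, TGM2, ACOX2, SHISA2, ABHD17C and LRATD2. They were picked from a comparison of the same 6 arrays for the size of that difference, by gene symbol in the platform annotation, with ABHD17C also known as FAM108C1 and LRATD2 as FAM84B. The 6 genes are among 20044 genes with a named probe and 11220 genes tested, and they have 8 probes on the array, 3 for TGM2 and 1 for each other gene. All 8 probes passed the filter on dim signals, 1 of them through the DMSO arrays alone.

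A375 is an established human melanoma cell line that carries an activated BRAF kinase. Control cells were kept for 24 h with DMSO, the solvent (n = 3 samples), and treated cells for 24 h with the BRAF inhibitor vemurafenib at 3 µM (n = 3 samples). Each sample was measured on 1 Illumina bead array. One cell line, 1 dose and 1 time were measured, and the labels do not say that the samples were separate cultures, so errors and p-values cover only the spread between these samples. The samples of each group are labelled as unnumbered, 1 and 2.

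The pathway that vemurafenib blocks carries growth signals from RAS to the nucleus, where ERK switches on genes for division and also genes that hold the pathway back. The 6 genes belong to different families. TMEM158 encodes a membrane protein first found as induced by oncogenic RAS in human fibroblasts. TGM2 is tissue transglutaminase, which joins proteins by bonds between glutamine and lysine, binds GTP inside the cell and binds fibronectin and integrins outside it. ACOX2 is the peroxisomal oxidase of branched-chain fatty acids and bile acid intermediates. SHISA2 belongs to a family that in frogs holds immature Frizzled and FGF receptors in the endoplasmic reticulum. ABHD17C is 1 of the ABHD17 hydrolases, which take palmitate off membrane proteins such as N-RAS. LRATD2 is named for a domain like that of lecithin retinol acyltransferase.

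Promoter sequences, from 250 bases before to 50 after the annotated start, were in the RefSeq table (GRCh38.p14) for 3 of the 6 genes. They are shown because they are the stretches in which motifs of ERK-linked transcription factors would be looked for in genes that were lower together. The capitals mark the GC box, GGGCGG or its reverse complement, which in TMEM158 and ABHD17C includes boxes that overlap each other. The TMEM158 sequence is the minus strand of chr3:45226238-45226537, the SHISA2 sequence the minus strand of chr13:26051967-26052266 and the ABHD17C sequence the plus strand of chr15:80695060-80695359.
TMEM158: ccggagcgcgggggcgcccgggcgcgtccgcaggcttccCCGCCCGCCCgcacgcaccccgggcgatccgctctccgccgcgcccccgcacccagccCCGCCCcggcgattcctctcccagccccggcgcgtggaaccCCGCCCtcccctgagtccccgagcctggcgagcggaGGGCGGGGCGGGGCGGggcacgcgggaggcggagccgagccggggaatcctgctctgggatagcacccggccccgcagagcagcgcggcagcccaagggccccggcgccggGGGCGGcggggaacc
SHISA2: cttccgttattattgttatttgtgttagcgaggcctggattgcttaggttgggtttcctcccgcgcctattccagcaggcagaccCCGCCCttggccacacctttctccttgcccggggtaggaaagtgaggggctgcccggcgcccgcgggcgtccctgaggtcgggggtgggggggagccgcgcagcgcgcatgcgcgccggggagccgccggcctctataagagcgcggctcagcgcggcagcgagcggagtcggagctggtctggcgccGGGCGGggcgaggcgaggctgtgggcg
ABHD17C: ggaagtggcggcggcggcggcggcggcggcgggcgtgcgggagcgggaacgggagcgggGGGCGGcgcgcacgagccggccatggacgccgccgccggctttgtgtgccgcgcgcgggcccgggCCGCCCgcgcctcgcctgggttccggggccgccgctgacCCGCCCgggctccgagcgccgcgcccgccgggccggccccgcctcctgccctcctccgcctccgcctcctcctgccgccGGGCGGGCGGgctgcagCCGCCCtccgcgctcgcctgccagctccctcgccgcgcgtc

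These 3 promoters were rich in G and C, with 82.7% in TMEM158, 69.7% in SHISA2 and 85.7% in ABHD17C, against a median of 58.7% over 35116 promoters of the same length. TMEM158 held 8 GC boxes, ABHD17C 6 and SHISA2 2, on both strands together, and 45.0% of all promoters held at least 1. Searched on both strands, the AP-1 motif TGANTCA, the ETS motif CCGGAAG, the cyclic AMP response element TGACGTCA, the TEAD motif GGAATG, the E-box CACGTG and the TATA box TATAAA had 0 matches in the 3 sequences. Of all promoters, 7.71% held the AP-1 motif, 10.3% the ETS motif, 1.85% the cyclic AMP response element, 14.0% the TEAD motif, 7.26% the E-box and 11.5% the TATA box. These exact letters were absent from these windows, which says nothing about near matches within them or about sites elsewhere. Near matches in the SHISA2 sequence include tataag, close to the TATA box, and cttccg, close to the reverse complement of the ETS motif. The TMEM158 sequence holds tgagtcc, close to the AP-1 motif, and the ABHD17C sequence begins with ggaag, the last letters of the ETS motif. Near matches were not counted.

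Median signals were 91.0 to 94.5 intensity units on the 6 arrays, and 38.2% to 41.7% of probes were detected at a detection p under 0.01. The samples numbered 2 stood apart from the others of their group. The unnumbered and 1 samples differed from each other with an SD over probes of 0.30 (log2) in DMSO and 0.32 in vemurafenib, and the samples numbered 2 differed from them with an SD of 0.53 to 0.56. Of the melanocyte lineage markers, SOX10, MITF, S100A1 and VIM were detected on all 6 arrays. MITF rose by 0.75 (limma adjusted p = 0.0334). This call was lost without 5 of the arrays in turn (adjusted p up to 0.0978) and with no filter. PMEL was detected on 2 arrays and MLANA on 1, and neither passed the filter. The pigment enzymes TYR and TYRP1 and the marker S100B were detected on none. None of 6 endothelial markers passed the filter. The summed signal of 6 fibroblast markers was 140 to 158 on the DMSO arrays and 200 to 337 on the vemurafenib arrays. LUM alone was detected on all 3 DMSO arrays, so the DMSO sum was mostly near-floor signal. DCN, a matrix proteoglycan, was at least 1.93-fold higher (limma adjusted p = 0.0230). The call of DCN was lost without 4 of the arrays (adjusted p up to 0.0822), without background correction and with the deposited log2 values. LUM (1.16) and COL1A1 (0.63) did not pass (adjusted p = 0.0693 and 0.0697) but did with the replicate label as a block (adjusted p = 0.00867 and 0.0274). DCN and COL1A1 were detected on 0 DMSO arrays and 3 vemurafenib arrays. They passed the filter through the vemurafenib arrays alone, so their higher values had to follow. The summed signal of 5 leukocyte markers was 491 to 1152 and 942 to 1540, most of it from CD68 alone. CD68 was detected on all 6 arrays (0.69, adjusted p = 0.297, and 0.0471 with the block), LYZ on 5, CD14 on 4, and PTPRC and CD3E on none. The summed signal of 5 keratinocyte markers was 1068 to 1361 and 1294 to 1678, most of it from KRT10 alone. KRT10 was detected on all 6 arrays (0.27), KRT14 on 4 (0.77) and KRT5, KRT1 and DSG3 on none. The leukocyte and keratinocyte sums thus follow 1 gene each and are not levels of a cell type. The part of these markers in the values below was not tested.

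All 6 genes were lower on all 3 vemurafenib arrays than on all 3 DMSO arrays, by 4.60-fold to 10.9-fold on the mean of normalised log2 intensities. Since this contrast chose them, their differences are given as a description with no test. Groups did not overlap, with vemurafenib below DMSO, for 18.0% of all genes tested. A difference of at least 4-fold downwards was found for 95 genes (0.847%), among which the 6 genes took the 7th (TMEM158), 13th (ACOX2), 16th (TGM2), 39th (LRATD2), 52nd (ABHD17C) and 74th (SHISA2) places. They were thus not the 6 deepest differences of the table. These places shift with the samples used: SHISA2 was 187th without DMSO 2, 133rd without vemurafenib 2 and 262nd without both samples numbered 2, and without vemurafenib 2 TMEM158 was 31st and TGM2 28th. With its dimmest probe TGM2 was 203rd. In a bulk sample, fewer cells that express a gene and less of its RNA per cell cannot be told apart.

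**Figure D1:**
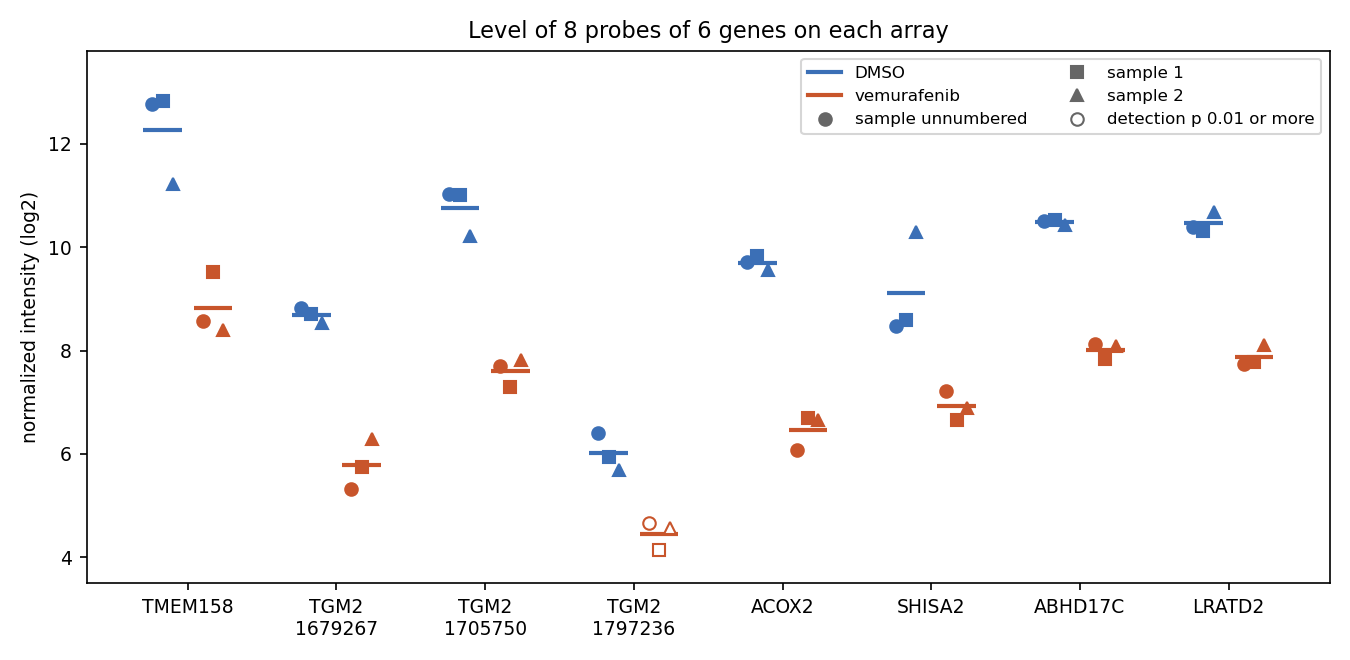
Normalised intensity (log2, vertical axis) of the 8 probes of the 6 genes on each of the 3 DMSO (blue) and 3 vemurafenib (orange) arrays. Points are samples, horizontal bars group means, and open points arrays with a detection p of 0.01 or more; levels of different probes are not comparable. The 3 vemurafenib points lie below the 3 DMSO points for each probe, and the open points are the vemurafenib arrays of the TGM2 probe ILMN_1797236.

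TMEM158 (probe ILMN_1792455) had normalised log2 intensities of 12.77, 12.82 and 11.23 on the DMSO arrays unnumbered, 1 and 2. On the vemurafenib arrays they were 8.57, 9.52 and 8.40. DMSO 2 lay well below the other DMSO samples but still above all treated samples. The group means were 12.27 ± 0.91 and 8.83 ± 0.60 (SD, n = 3 per group), a difference of -3.44 ± 0.63 (SE), or 10.9-fold lower with vemurafenib. In the deposited intensities the gene went from between 2743 and 7178 units to between 396 and 749 units.

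TGM2 had its brightest probe, ILMN_1705750, at 11.03, 11.02 and 10.22 in DMSO and at 7.70, 7.30 and 7.82 in vemurafenib. DMSO 2 was again the lowest control. The difference was -3.15 ± 0.31 (SE), or 8.87-fold lower, from 10.76 ± 0.47 to 7.61 ± 0.27 (SD, n = 3 per group). The platform annotation assigns this probe to the RefSeq record of the full-length enzyme and the remaining TGM2 probes to that of a shorter variant.
The first of these, ILMN_1679267, read 8.82, 8.70 and 8.53 in DMSO and 5.33, 5.75 and 6.30 in vemurafenib, which is 7.42-fold lower (difference -2.89 ± 0.29, SE). The last, ILMN_1797236, read 6.40, 5.95 and 5.69 in DMSO, and was not well above background on any vemurafenib array, with detection p-values of 0.0169, 0.996 and 0.119. It was at least 2.74-fold lower, a bound set by the lowest signal among detected probes. This probe passed the filter through the DMSO arrays alone, so its lower value had to follow and adds no support to the other probes.

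ACOX2 (ILMN_1685703) stood at 9.72, 9.84 and 9.55 in DMSO and at 6.07, 6.69 and 6.66 in vemurafenib. The DMSO samples lay close together, while the unnumbered vemurafenib sample lay below the other treated samples. The means were 9.70 ± 0.14 and 6.47 ± 0.35 (SD, n = 3 per group), a difference of -3.23 ± 0.22 (SE), or 9.38-fold lower. Without the unnumbered vemurafenib sample the difference was -3.03. The treated intensities, 150 to 172 units, were close to the background of 85.0 to 88.3 units, so the size depends on the background correction: without it the difference was -2.50.

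SHISA2 (ILMN_1760412) had the widest spread of the 6 genes within the DMSO group. Its DMSO values were 8.47, 8.60 and 10.29, and its vemurafenib values 7.22, 6.65 and 6.89. DMSO 2 lay far above the other controls, while the 3 treated samples lay close together. The mean difference of -2.20 ± 0.61 (SE), 4.60-fold lower, rests in part on that sample and was -1.60 without both samples numbered 2. In the deposited intensities DMSO 2 read 1476 units, against 408 and 427 units for the other controls and 171 to 246 units with vemurafenib.

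ABHD17C (ILMN_1788416) had the smallest spread within groups of the 6 genes. It read 10.51, 10.53 and 10.43 in DMSO and 8.12, 7.84 and 8.09 in vemurafenib, from 10.49 ± 0.06 to 8.02 ± 0.15 (SD, n = 3 per group). The difference was -2.47 ± 0.09 (SE), or 5.54-fold lower. LRATD2 (ILMN_1670807) read 10.40, 10.32 and 10.68 in DMSO and 7.74, 7.78 and 8.11 in vemurafenib, a difference of -2.59 ± 0.16 (SE), or 6.02-fold lower. For both genes no sample stood far from its group.

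Set against the same-numbered control, the genes differed in how far the pairs agreed. LRATD2 had differences of -2.65, -2.54 and -2.57 in the unnumbered, 1 and 2 pairs, and ABHD17C of -2.39, -2.69 and -2.33. ACOX2 had -3.65, -3.15 and -2.89, and TGM2 -3.33, -3.72 and -2.40. The remaining genes spread more and in opposite ways. TMEM158 had its smallest difference in pair 2 (-4.20, -3.30 and -2.82), and SHISA2 its largest (-1.26, -1.94 and -3.40).

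**Figure D2:**
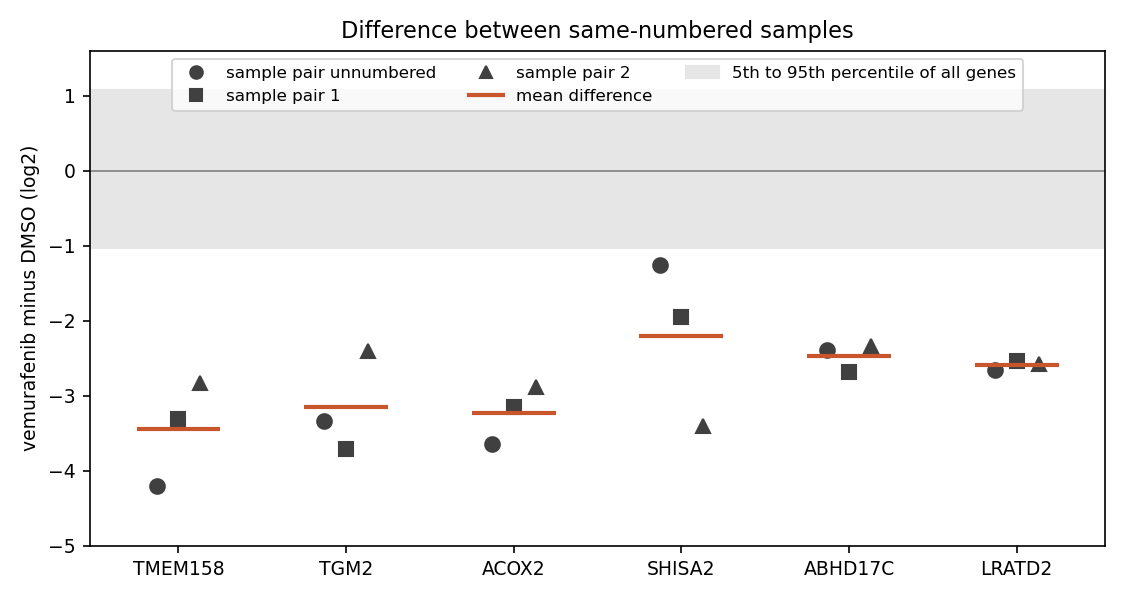
Vemurafenib minus DMSO (log2, vertical axis) for the pairs of samples with the same label (points) and the mean of the 3 pairs (orange bar) for the 6 genes, using the brightest probe of TGM2. The grey band spans the 5th to 95th percentile of the mean difference over 11220 genes, -1.03 to 1.07. It is made of means, while the points are single pairs, so it is not a range for points. All 18 points lie below it, from -1.26 for SHISA2 to -4.20 for TMEM158, but this contrast chose the genes.

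Among the controls, TMEM158 and SHISA2 differed in opposite directions in sample 2, which is part of the DMSO mean that chose the genes, so these deviations are a description. The DMSO sample 2 differed from the mean of the other controls by -1.57 for TMEM158 and by 1.75 for SHISA2. Over all genes the median absolute deviation of that sample was 0.31, and 5.82% of genes deviated by at least 1. By the size of the deviation SHISA2 was 77th and TMEM158 119th of 11220 genes. TGM2 also lay lower in DMSO 2 with its brightest probe (-0.81), while ACOX2 (-0.23), ABHD17C (-0.10) and LRATD2 (0.32) lay near the other controls. The TGM2 probes disagree here: ILMN_1679267 deviated by -0.24 in DMSO 2 and by 0.75 in vemurafenib 2.
In the vemurafenib group the sample 2 deviated by -0.64 for TMEM158 and by -0.05 to 0.35 for the other genes, with the brightest TGM2 probe. Of all genes, 6.45% deviated there by at least 1. With both samples numbered 2 left out, the treatment difference was -3.75 for TMEM158, -3.52 for TGM2, -3.40 for ACOX2, -2.54 for ABHD17C and -2.60 for LRATD2.

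**Figure D3:**
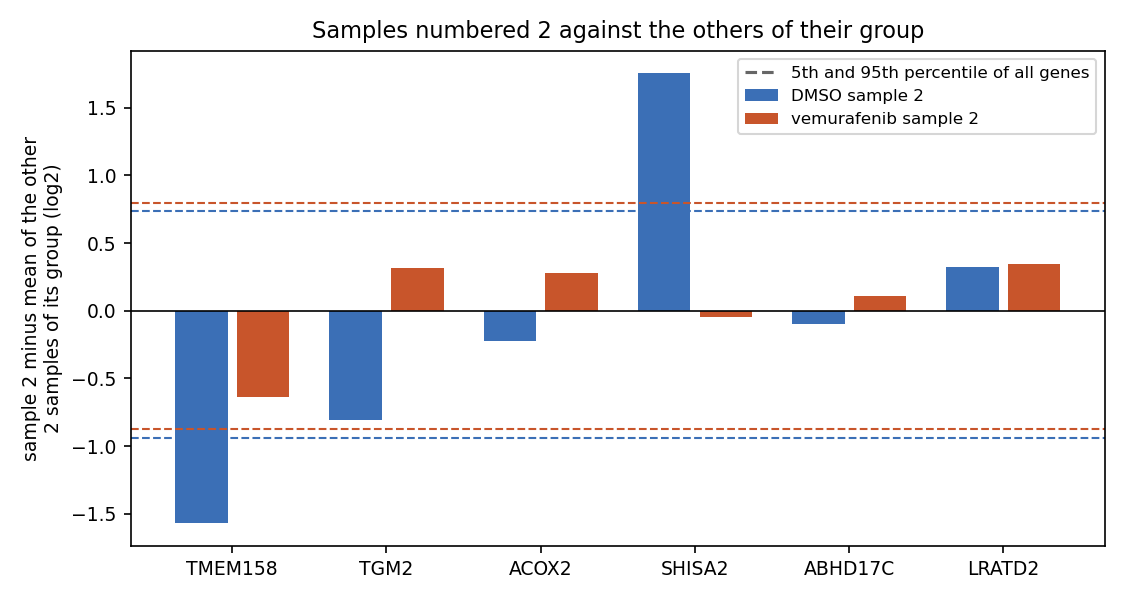
Deviation (log2, vertical axis) of the sample numbered 2 from the mean of the other samples of its group, in DMSO (blue) and vemurafenib (orange), for the 6 genes. TGM2 is shown by its brightest probe. Dashed lines give the 5th and 95th percentile over 11220 genes, -0.94 and 0.74 in DMSO and -0.87 and 0.80 in vemurafenib; the DMSO bars of TMEM158 (-1.57) and SHISA2 (1.75) are the ones outside their lines.

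The genes most like each of the 6 were found by the root-mean-square difference of log2 values over the 6 arrays, after centring each gene on its DMSO mean, among 9691 genes detected on all DMSO arrays. Values centred in this way carry the treatment difference that chose the 6 genes, so a near gene is mostly one with a similar difference. The deviation of DMSO 2 is also part of the distance. A shift there that a near gene shares thus follows in part from how it was found. Nearest to TMEM158 were COL13A1, a transmembrane collagen (0.29), the surface nucleotidase NT5E (0.50) and SPRY4, an inhibitor of the ERK pathway (0.55, with no vemurafenib array well above background). COL13A1 and SPRY4 were also lower in DMSO 2, by -1.34 and -1.10. Nearest to TGM2 were the long noncoding RNA MANCR (0.19), the ETS factor ETV5 (0.22) and the ERK phosphatase DUSP6 (0.30). ACOX2 was nearest to the ETS factor ETV4 (0.23), MANCR (0.25) and NT5E (0.26).
ABHD17C was nearest to the adhesion protein NTM (0.18), the chromatin protein HMGA2 (0.18) and the WNT antagonist SFRP1 (0.19). LRATD2 was nearest to NTM (0.11), the DNA repair gene FANCB (0.17) and SPRY2, another inhibitor of the pathway (0.20), and it lay 0.20 from ABHD17C. SHISA2 had no close match, with the homeobox factor HHEX at 0.41, the chromatin assembly subunit CHAF1A at 0.43 and the transporter SLC43A3 at 0.45. All 3 were higher in DMSO 2 as well, by 1.19, 1.09 and 0.58, a shift that is part of the distance that found them. Among the 6 genes the widest distance was that between TMEM158 and SHISA2 (1.49).

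For the level of the pathway itself, 10 genes often used together as a readout of MEK and ERK output were listed. Of these 8 fell, 0 rose and 2 did not pass, against 7.93% of all genes called lower (limma adjusted p under 0.05). SPRY4 fell at least 14.2-fold, from 8.37 ± 0.64 to 4.48 ± 0.24 (SD, n = 3 per group; adjusted p = 0.00123). ETV4, ETV5 and DUSP6 had differences of -3.33 ± 0.20, -3.25 ± 0.19 and -3.16 ± 0.27 (limma SE) with their brightest probes. Their second kept probes gave -3.53, -2.38 and -2.05 and passed too, so the size depends on the probe for ETV5 and DUSP6. The cell cycle gene CCND1 and SPRY2 had differences of -2.77 each. The ephrin receptor EPHA2 fell by 2.44 and the phosphatase DUSP4 at least 3.70-fold. SPRY4 and DUSP4 were detected on 3 DMSO arrays and 0 vemurafenib arrays. They passed the filter through the DMSO arrays alone, so their falls had to follow and add no support to the count. EPHA4, a further ephrin receptor (-0.43, adjusted p = 0.485), and PHLDA1 (-0.47, adjusted p = 0.445) did not pass.
The list's median difference was -2.77, beside 0.05 over all genes. The 6 genes studied here lay between -2.20 and -3.44, but they were chosen for the size of this difference. Their closeness to the list's median follows from that choice and is no support for a link to the list. The 8 calls kept an adjusted p under 0.05 without each array in turn, except that of EPHA2 without the unnumbered vemurafenib sample (0.0563).

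The relatives of TGM2 were hardly measurable. Of 8 further members of the transglutaminase family, 6 did not pass the filter, among them TGM3, TGM5 and F13A1, the coagulation factor XIII subunit, and neither TGM1 (0.15, adjusted p = 0.643) nor TGM6 (0.08, adjusted p = 0.828) passed the test, each detected on 3 of 6 arrays. Of 10 measured partners and regulators of TGM2, 2 fell, 0 rose and 8 did not pass, beside 7.93% of all genes called lower and 8.07% called higher. The integrin subunit ITGB3 fell at least 2.42-fold (adjusted p = 0.00475) and ITGB5 fell by 1.13 ± 0.19 (limma SE), from 11.03 ± 0.25 to 9.90 ± 0.20 (SD, n = 3 per group; adjusted p = 0.0136). ITGB3 was detected on 3 DMSO arrays and 0 vemurafenib arrays. It passed the filter through the DMSO arrays alone, so its fall had to follow and adds no support to the count. Fibronectin, FN1, a main ligand of TGM2 outside the cell, was not detected on any array. The call of ITGB5 was lost without 3 of the arrays, DMSO unnumbered, DMSO 1 and vemurafenib 1, with adjusted p up to 0.0615.

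Around ACOX2, more genes of peroxisomal fatty acid oxidation rose than fell. There were 4 rises and 1 fall among 18 measured genes, the other 13 did not pass, and the median difference was 0.42, beside 8.07% of all genes called higher and 7.93% called lower. PHYH, which starts the breakdown of phytanic acid, rose from 8.73 ± 0.42 to 10.10 ± 0.53 (SD, n = 3 per group; difference 1.37, adjusted p = 0.0291). Catalase, CAT, which removes the peroxide that the oxidases make, rose by 1.23 ± 0.17 (limma SE; adjusted p = 0.00730). The thiolase ACAA1 and HSD17B4, which acts just after the oxidases, rose by 0.71 and 0.67 (adjusted p = 0.0321 and 0.0291).
The 1 call in the other direction was that of AMACR, the racemase that prepares the substrates of ACOX2, named after its values were seen. Its brightest probe fell by 0.63 (adjusted p = 0.0395), while its other probes gave 0.34 and -0.15 and did not pass, so the probes disagree. The oxidase ACOX3, a relative of ACOX2, did not pass (0.27 ± 0.24, limma SE; adjusted p = 0.487).
Only the call of CAT, of these 5, held without each array in turn. The number of calls was 1 without DMSO unnumbered, DMSO 1, vemurafenib unnumbered or vemurafenib 1, 2 without DMSO 2, and 8 (7 higher, 1 lower) with the replicate block.

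**Figure D4:**
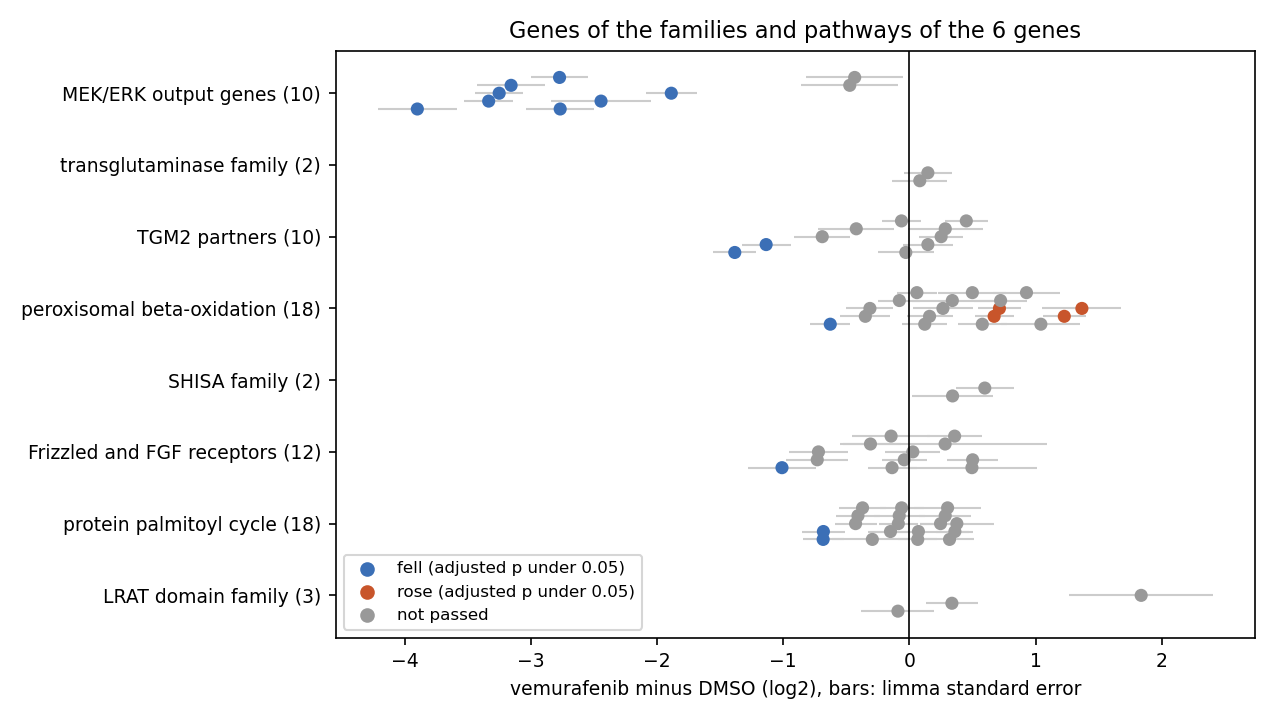
Vemurafenib minus DMSO (log2, horizontal axis) for the measured genes of 8 families and pathways around the 6 genes, which are themselves left out; bars are limma standard errors and the number of measured genes stands beside each list. Of the MEK and ERK output list 8 of 10 genes fell, whereas the peroxisomal list had 4 rises and 1 fall among 18. No list other than these 2 had more than 2 calls. SPRY4, DUSP4 and ITGB3 passed the filter through the DMSO arrays alone, so their falls had to follow.

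Of the SHISA relatives, SHISA5 (0.60 ± 0.23, limma SE; adjusted p = 0.119) and SHISA4 (0.34 ± 0.32, adjusted p = 0.506) were measured and did not pass, and 6 others with a probe, SHISA3 among them, did not pass the filter. With the replicate block SHISA5 passed as higher (adjusted p = 0.0345). Among 12 measured Frizzled and FGF receptors and their partner LRP6, FZD8 fell and 11 did not pass, a share of 8.33% that is near the 7.93% of all genes called lower. FZD8, a WNT receptor, went from 6.07 ± 0.32 to 5.07 ± 0.46 (SD, n = 3 per group; difference -1.01, adjusted p = 0.0454). Its call was lost without each array in turn except vemurafenib 2 (adjusted p up to 0.156), and under 5 of the other alternatives. With the replicate block 4 receptors were called, 1 higher and 3 lower.

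Of the nearest relatives of ABHD17C, ABHD17B did not pass, with a difference of 0.30 ± 0.26 (limma SE; adjusted p = 0.477), and ABHD17A was not detected on any array. Of 18 measured genes that add or remove palmitate or carry it, 2 fell, 0 rose and 16 did not pass, a share of 11.1% beside 7.93% of all genes called lower. Without background correction, or with the deposited log2 values, 1 rose and 1 fell. LYPLA1, another thioesterase that takes palmitate off proteins, fell by 0.68 ± 0.16 (limma SE; adjusted p = 0.0328), and ZDHHC18, an enzyme that adds it, by 0.68 ± 0.17 (adjusted p = 0.0374). A second LYPLA1 probe did not pass (-0.42, adjusted p = 0.234). The difference between ABHD17C and its relatives was not tested, since its own difference chose it. These 2 calls were reduced to 0 without DMSO unnumbered, DMSO 1, vemurafenib unnumbered or vemurafenib 1, to 1 without DMSO 2, and to 0 with median centring.

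LRATD2 had no measurable close relative. LRATD1 was not detected on any array and LRAT, which makes retinyl esters, was detected on 1. Of the 3 measured phospholipases of the related PLAAT group, 0 passed: PLAAT1 (-0.09, adjusted p = 0.861), PLAAT3 (0.34, adjusted p = 0.303) and PLAAT4 (1.84 ± 0.57, limma SE; adjusted p = 0.0680). PLAAT4, a growth-restraining gene induced by retinoids, went from 5.46 ± 0.77 to 7.30 ± 1.09 (SD, n = 3 per group) with overlapping groups, and it passed with the replicate block (adjusted p = 0.00295) and without vemurafenib 2.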

How the data were processed

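RNA of 6 A375 samples was labelled with biotin and measured on Illumina bead arrays, per the labels' protocols. For 48107 probes the authors deposited a signal intensity, neither background-subtracted nor normalised to judge by the values, with a detection p-value beside it, per the file headers. The scanner software was not given in the sources used here, nor was the way the detection p-value was made. The authors also deposited log2 values by a method that is not stated; they differ by at most 0.0480 from the log2 of quantile-normalised uncorrected intensities, each array has the same median, and their scale is thus known from the data alone.

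With limma 3.58.1 in R 4.3.3, background was corrected by normexp, using detection p-values in place of control probes, with an offset of 16, and arrays were quantile normalised and put on the log2 scale. Probes with a missing value (4) were left out, and 18747 probes detected on at least 3 arrays (detection p under 0.01) were kept. GEO's platform annotation names 1 gene for 30111 probes, several for 8 and none for 17984; 30072 matched the RefSeq table by gene identifier. A gene is represented by its kept probe with the highest mean. Genes outside the 6 were tested with limma's lmFit and eBayes, without covariates, with Benjamini-Hochberg adjustment over kept probes at 0.05. The fit was first run on simulated data, with noise independent between arrays and large planted changes. That run does not cover shifts shared by the samples numbered 2, or small changes. Where no array of a group detected a gene, its fold is given as a bound. Same-numbered samples deviated together from their group means (r across probes 0.19, 0.35 and 0.52 for unnumbered, 1 and 2), from the data and not the labels. Crossed pairs of unnumbered and 1 correlated as much (0.26 and 0.35), so these values set the samples numbered 2 apart and do not tell unnumbered from 1, on which the blocked values also rest. With the replicate label as a block, 3339 genes passed in place of 1796. Lists were described by counts, and no set test was run.

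The members, lists and tests were chosen with earlier results of these data known. Named by rule were all probes of the 6 genes, the 3 nearest genes to each, the genes of the MEK and ERK output list, direct relatives of the 6 genes, and up to 4 passing genes of each list by size, or the 2 brightest if none passed, with up to 3 genes of each marker list; further markers were named for their detection after their values were seen. The marker lists were checked for detection: MITF and DCN passed the test, and of keratinocyte, leukocyte and endothelial genes 0 did.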

Additional observations from a re-analysis of the deposited data

How the results depend on the processing

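The difference of each of the 6 genes kept its direction under all 15 alternatives run for it, but most of these could not reverse it. The groups did not overlap, so leaving out or averaging samples kept the sign. The fits with no filter and with the replicate block return the main difference, as does the dimmest probe for genes with 1 probe. For TMEM158 and SHISA2 the difference stayed within 1 pooled SD of the replicates, from -3.97 to -3.17 and from -2.53 to -1.60. That SD was wide for these genes, 0.77 and 0.75, against 0.12 for ABHD17C, so this does not make them the steadier genes. Without background correction the difference was -3.25 for TMEM158, -2.76 for TGM2, -2.50 for ACOX2, -1.73 for SHISA2, -2.19 for ABHD17C and -2.28 for LRATD2. With the deposited log2 values it was -2.54 for ACOX2, -2.22 for ABHD17C and -2.31 for LRATD2, and with an offset of 50 it was -2.81 for ACOX2 and -2.33 for ABHD17C. The dimmest TGM2 probe measured -1.55, with no vemurafenib array well above background, so that only the bound of at least 2.74-fold holds there. Leaving out 1 sample moved SHISA2 most, from -2.53 to -1.62, the latter without DMSO 2.

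The count of all genes called, 1796, was 940 with no filter, 3339 with the replicate block, 3638 without both samples numbered 2 and 305 to 2671 without single arrays. With unnumbered and 1 averaged, an alternative added after seeing the data, it was 26. Median centring gave 60.8% of calls as higher, against 50.4%. Averaging was not run for the lists. In the alternatives run for them, the 8 MEK and ERK output calls and the 0 transglutaminase calls did not move beyond 1.5 times. TGM2 partners (2) had 1 to 3 calls without single arrays and 4 without both samples numbered 2. Peroxisomal genes (5) had 8 calls with the block, 9 without both samples numbered 2 and 1 to 7 without single arrays. SHISA relatives (0) had 1 with the block and 1 without both samples numbered 2. The receptors (1) had 0 without background correction, with an offset of 50, median centring, the deposited log2 values or no filter, 4 with the block or without both samples numbered 2, and 0 to 4 without single arrays. Palmitoyl cycle genes (2) had 0 with median centring, 1 with no filter, with trend and robust options or with the dimmest probe, and 0 to 2 without single arrays. LRAT relatives (0) had 1 with the block, 1 without both samples numbered 2 and 0 to 1 without single arrays. The cause was not tested. Signals near the background of 85.0 to 88.3 units limit small differences.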
